A study of Mus musculus with 18 samples.

Results

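The 10 immunoglobulin constant region genes described here are the heavy-chain genes Ighm, Ighd, Ighg3, Ighg1, Ighg2b, Ighg2c, Ighe and Igha and the light-chain genes Igkc and Iglc2. They were chosen by name from the 49585 genes of the count table, and all 10 were matched to a row by Ensembl identifier. RNA-Seq was performed on viable CD45+ leukocytes sorted from pooled young adult mice, with 3 pools in each of 6 groups and 18 libraries in all, and the 4 inflamed populations were sorted as Kaede red+. Kaede is a fluorescent protein that turns from green to red under violet light, so that cells lit up in a tissue can later be found in the lymph node that drains it. Kaede mice received Th1-polarised OT-II CD45.1 CD4+ T cells, were immunised with ovalbumin (OVA) in complete Freund's adjuvant (CFA), and were then given 100 μg heat-aggregated OVA (HAO) or, as the control, PBS.

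The joint was challenged through the footpad and the skin in the ear pinna. Joint nonmigrated and skin nonmigrated cells were those still in the inflamed tissue. Joint migrated and skin migrated cells were those that had left it for the draining lymph node. They are also called the inflamed nodes below, although they are the Kaede red+ cells alone and not the whole node. The joint node and skin node groups at steady state are labelled as leukocytes that moved from the joint or ear to its node without inflammation. The titles of the former carry PBS, the control challenge, and KG, and those of the latter carry Naive. The titles of both inflamed skin groups, sorted as Kaede red+, carry KR, so KG may stand for Kaede green, that is, cells not photoconverted. The labels do not explain KG, and do not say for each sample whether these cells were photoconverted and sorted as Kaede red+ or whether the mice were immunised or given T cells. Whether the steady-state libraries hold resident node cells is thus not settled, and in every inflamed against steady-state value the HAO challenge cannot be told apart from such differences. The steady-state groups also differ from each other in these titles, so site cannot be told apart from treatment in a comparison between them. The same holds for the interaction of site and inflammation. The study asked which transcripts distinguish cells that leave an inflamed joint from those that stay, with skin as the comparison site.

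An antibody is built from heavy and light chains, and the constant region of the heavy chain sets its class, or isotype. Naive B cells make IgM and IgD together from a single long transcript by alternative splicing. After activation, class switch recombination deletes the DNA between Ighm and a downstream constant gene, and the cell then makes IgG, IgE or IgA. Antibody-secreting plasma cells carry very large amounts of these transcripts, so a bulk level reflects both the number of cells that carry them and the transcripts in each. Which cells carried them was not tested. In bulk samples, fewer B lineage cells and less immunoglobulin RNA per cell cannot be told apart.

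The 8 heavy-chain genes lie on the minus strand of chromosome 12 in the mm10 build, in the order in which they are reached by switching. Ighm occupies chr12:113418558-113422730 and Ighd chr12:113406604-113416324. The gamma genes follow, with Ighg3 at chr12:113356224-113361232, Ighg1 at chr12:113325240-113330523, Ighg2b at chr12:113302965-113307933 and Ighg2c at chr12:113285325-113288932. Ighe lies at chr12:113269260-113273248 and Igha, the last of the series, at chr12:113254830-113260236. The kappa gene Igkc lies on the plus strand at chr6:70726435-70726966, and the lambda gene Iglc2 on the minus strand at chr16:19198396-19200351, where it overlaps the joining segment Iglj2.

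The 4 gamma genes differ most visibly in the hinge, the flexible stretch that joins the antigen-binding arms to the tail and holds the disulfide bonds between the heavy chains. The hinge is exon 2 of 4 in each secreted gamma transcript. These exons are shown because the results below turn on which gamma gene was used. Each is read 5′ to 3′ on the coding strand from the GENCODE M21 transcript, with in-frame cysteine codons in capitals.
Ighg3, chr12:113360529-113360576: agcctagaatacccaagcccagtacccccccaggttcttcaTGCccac
Ighg1, chr12:113329844-113329882: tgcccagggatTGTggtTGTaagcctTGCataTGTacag
Ighg2b, chr12:113307261-113307326: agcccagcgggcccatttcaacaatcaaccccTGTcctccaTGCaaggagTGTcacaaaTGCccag
Ighg2c, chr12:113288263-113288325: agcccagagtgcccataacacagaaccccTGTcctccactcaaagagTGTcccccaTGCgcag

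The hinge exon of Ighg3 holds 1 cysteine codon, that of Ighg2c 3, and those of Ighg1 and Ighg2b 4 each. Over the aligned secreted transcripts, Ighg2b and Ighg2c were 86.8% identical, whereas the other gamma pairs were 75.8% to 78.4% identical. None of the possible 100-base reads of any member was found exactly in another of these genes. With 2 mismatches allowed, 14.7% of the windows of Ighg2c, 7.9% of those of Ighg2b and 1.7% of those of Ighg3 matched another gamma gene, and 11.9% of those of Iglc2 matched Iglc3. The split of counts between Ighg2b and Ighg2c, and between Iglc2 and Iglc3, is uncertain to that extent.

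Assigned read counts per library ran from 19239531 to 43814403, and the 6 inflamed skin libraries were all smaller than the 6 inflamed joint libraries. Their reads outside any gene made up 0.092% to 0.135%, against 0.227% to 0.562% in all other libraries, and only their column names end in S and a number. The labels do not explain this. It cannot be told apart from site between inflamed joint and skin, nor from inflammation between skin migrated cells and the steady-state skin node. Levels are given as CPM, read counts scaled to a common library size after TMM normalisation, and 3 counts, taken as the floor, equalled 0.0616 to 0.18 CPM. A gene was called when edgeR's quasi-likelihood test gave a Benjamini-Hochberg adjusted p below 0.05 over all tested genes with an absolute log2 fold change above 1. Ptprc, which encodes CD45, stood between 1156 and 2531 CPM in the 18 libraries. The summed level of 4 B cell markers (Ms4a1, Cd79a, Cd79b and Pax5) was 4.56 to 11.1 CPM in skin nonmigrated, 86.4 to 201 in joint nonmigrated, 86.8 to 158 in skin migrated and 498 to 710 in joint migrated cells. It was higher at steady state, where no library fell below 1930 CPM. The part of B cell content in the differences below was not tested.

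Ighm, the constant gene of IgM, was highest in migrated cells and lowest in the skin itself. Its levels were 449, 834 and 598 CPM in joint nonmigrated and 2398, 2305 and 3528 CPM in joint migrated cells. In the skin they were 55.4, 82.8 and 155 CPM in nonmigrated and 4586, 3142 and 4861 CPM in migrated cells. Every migrated library lay above every nonmigrated library of its site. At steady state Ighm stood at 2357, 2218 and 2484 CPM in the joint node and 2488, 2126 and 1793 CPM in the skin node, and neighbouring groups among these 4 node groups overlapped in the order of their means.

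Ighd, the constant gene of IgD and a mark of mature naive B cells, was ordered differently. Steady-state nodes held 1448, 1574 and 1604 CPM (joint) and 1613, 1337 and 1083 CPM (skin). Joint migrated cells followed with 307, 219.7 and 270.4 CPM, then skin migrated cells with 39.6, 32.6 and 53.5 CPM. These groups did not overlap, apart from the pair of steady-state nodes. The tissue levels were lower still, at 9.55, 15.5 and 23.4 CPM in joint nonmigrated and 2.1, 1.23 and 1.14 CPM in skin nonmigrated cells.

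Among the gamma genes, Ighg2c, which encodes the IgG2c of C57BL/6 mice and is known for interferon-driven responses, was highest in skin migrated cells at 808, 932 and 2157 CPM. All 3 of these libraries lay above those of joint migrated cells, which held 163, 494 and 613 CPM. Joint nonmigrated cells held 42.7, 215 and 111 CPM and overlapped the joint migrated range, while skin nonmigrated cells held 0.84, 1.81 and 7.69 CPM. Steady-state levels were 40.1, 24.5 and 26 CPM in the joint node and 7.16, 5.6 and 8.65 CPM in the skin node.

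Ighg1, the gamma gene known for interleukin-4-driven responses, had the opposite order of means at the node. It stood at 260.5, 453 and 509.5 CPM in joint migrated and 375, 107 and 271 CPM in skin migrated cells, and these ranges overlapped. The tissue values were 54.3, 212 and 57.7 CPM in the joint and 0.06, 0.117 and 4.78 CPM in the skin, so 1 library (replicate 3) carried nearly all of the skin nonmigrated signal. Steady-state joint nodes, at 49.7, 36.6 and 34.3 CPM, lay above skin nodes, at 6.64, 3.43 and 4.12 CPM.

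Ighg2b and Ighg3, the remaining gamma genes, were also highest in skin migrated cells. Ighg2b stood at 613, 306 and 1006 CPM there, at 139.6, 382 and 427 CPM in joint migrated cells and at 91.1, 279 and 134 CPM in joint nonmigrated cells, with overlap between neighbours. Its skin nonmigrated values of 0.24, 0.526 and 11.1 CPM again rested on replicate 3. Ighg3 stood at 193, 142 and 621 CPM in skin migrated cells, with replicate 3 far above the others, and at 51.2, 102 and 61.4 CPM in joint migrated cells. It was 7.28, 22.7 and 11.5 CPM in joint nonmigrated cells and 0.06, 0.175 and 0.208 CPM in skin nonmigrated cells, where it rested on 8 counts in all. Steady-state nodes held 21.5 to 32.3 CPM (joint) and 5.35 to 11.9 CPM (skin) of Ighg2b, and 5.12 to 7.9 CPM and 2.48 to 4.34 CPM of Ighg3.

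Ighe, the constant gene of IgE, was scarce outside the migrated cells. Joint migrated cells held 24.1, 20.7 and 45.5 CPM and skin migrated cells 23.5, 8.94 and 12.5 CPM, and these ranges overlapped. Steady-state nodes held 0.467, 1.4 and 1.46 CPM (joint) and 0.718, 0.232 and 0.428 CPM (skin). The 3 joint nonmigrated libraries held 13 counts in all, of which 11 lay in replicate 2, and the 3 skin nonmigrated libraries held 1.

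Igha, the constant gene of IgA, the class of mucosal surfaces, was the single member with its highest mean in a tissue rather than a node. Joint nonmigrated cells held 413, 688 and 429 CPM, which overlapped the 249.7, 199 and 467 CPM of skin migrated cells. Joint migrated cells held 47.9, 42.1 and 183 CPM, below every joint nonmigrated library. The skin nonmigrated libraries held 1.08, 7.43 and 22.5 CPM, and the steady-state nodes 3.29, 2.9 and 4.04 CPM (joint) and 5.05, 4.35 and 11.5 CPM (skin).

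The light-chain gene Igkc, which pairs with any heavy chain, followed Ighm. It stood at 3687, 2475 and 5604 CPM in skin migrated cells, 1576, 2033 and 2994 CPM in joint migrated cells and 622, 1422 and 758 CPM in joint nonmigrated cells. Skin nonmigrated cells held 3.84, 16.3 and 51.9 CPM. Steady-state nodes held 1581, 1548 and 2101 CPM (joint) and 1505, 1272 and 951 CPM (skin). Iglc2, a lambda gene, instead followed Ighd in having its highest levels at steady state, with 139, 136 and 181 CPM in the joint node and 166, 137 and 102 CPM in the skin node. It stood at 72.2, 44.8 and 59.3 CPM in joint migrated, 44, 50.7 and 38.7 CPM in skin migrated, 11.6, 16 and 10.3 CPM in joint nonmigrated and 0, 0.292 and 0.416 CPM in skin nonmigrated cells.

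**Figure D1:**
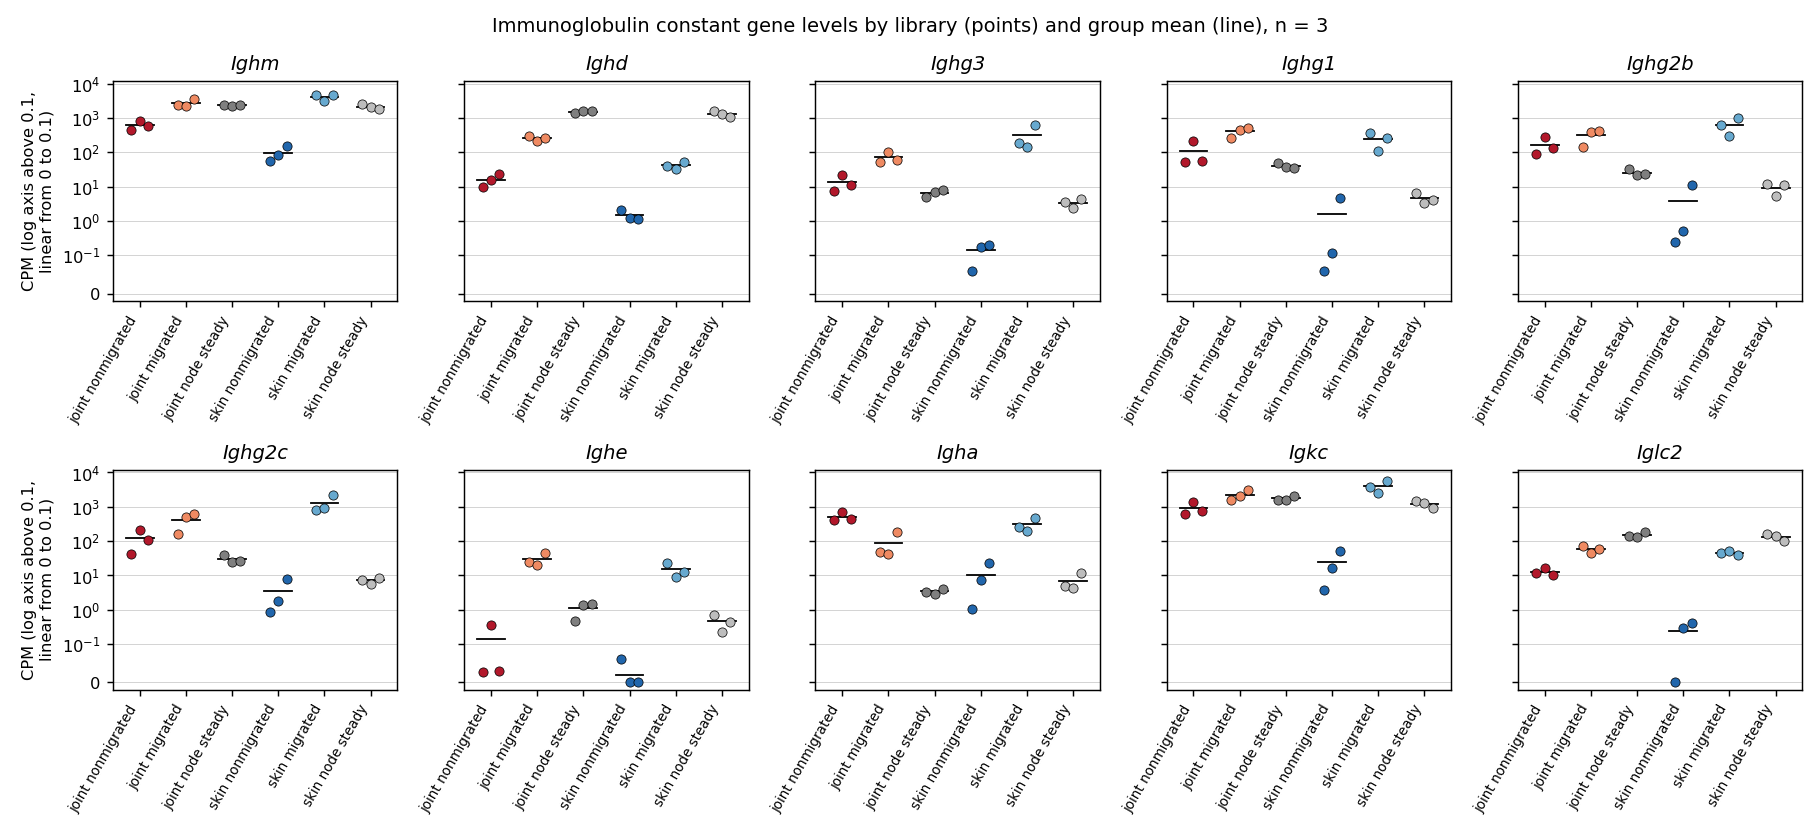
Level of each of the 10 constant genes in CPM (y axis, log above 0.1 and linear from 0 to 0.1) in the 6 groups (x axis), with a point per library and a line at the mean of 3. Skin nonmigrated cells have the lowest mean for every gene except Igha. Ighd and Iglc2 are highest at steady state, and Igha is highest in joint nonmigrated cells at 413 to 688 CPM.

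In the joint, migrated cells were compared with the cells that stayed. Of the 10 members, 5 rose in migrated cells and 1 fell, against 16% of all 16777 tested genes called higher and 18.4% called lower (34.3% in either direction). Ighe rose most, by 7.79 ± 0.73 on the log2 scale (SE, adjusted p = 5.41e-06), although this rested on 13 counts in the nonmigrated pools. Ighd rose 16.5-fold (log2 4.04 ± 0.33, adjusted p = 2.22e-06) and Ighm 4.38-fold (log2 2.13 ± 0.36, adjusted p = 0.00043). Ighg3 rose by 2.37 ± 0.55 and Iglc2 by 2.22 ± 0.30 on the same scale. Igha fell 5.6-fold (log2 -2.48 ± 0.80, adjusted p = 0.0196), a call that was lost without joint nonmigrated replicate 2 (adjusted p = 0.0568), joint migrated replicate 1 (0.0684) or joint migrated replicate 2 (0.0745), and its log2 fold change was -3.47 without joint migrated replicate 3. Ighg1 (log2 1.92 ± 0.82), Ighg2b (0.91 ± 0.86), Ighg2c (1.79 ± 0.74) and Igkc (1.24 ± 0.67) did not pass, with adjusted p of 0.0655, 0.391, 0.059 and 0.137. Without joint nonmigrated replicate 2, which held the highest gamma levels of its group, Ighg1 (log2 2.86) and Ighg2c (2.45) passed and Ighe stood at 9.84, and Ighg2c passed without joint migrated replicate 1 as well (2.19). Marker sums of other cell types moved with this comparison. From joint nonmigrated to joint migrated libraries, 4 macrophage or monocyte markers went from 15500 to 18600 CPM to 117 to 286 CPM, 4 neutrophil markers from 4670 to 14300 CPM to 30.1 to 75.7 CPM, 2 fibroblast markers from 52.1 to 165 CPM to 0.842 to 1.44 CPM, and 4 T cell markers from 104 to 218 CPM to 863 to 1140 CPM. Their part in the result was not tested.

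In the skin the same comparison gave a rise for all 10 members, against 15.7% of tested genes called higher (35.4% in either direction). The median over members was a log2 fold change of 7.33, where that of all tested genes was 0.01. Ighg3 rose as well, but its fold rested on 1, 3 and 4 counts in the nonmigrated libraries and is imprecise. On the log2 scale Ighg2c rose by 8.53 ± 1.02, Iglc2 by 7.48 ± 0.45, Igkc by 7.35 ± 0.87, Ighg2b by 7.31 ± 1.15 and Ighg1 by 7.18 ± 1.09. Ighm rose 42.9-fold (log2 5.42 ± 0.42, adjusted p = 1.56e-06), Igha 29.3-fold (log2 4.87 ± 0.90, adjusted p = 0.000731) and Ighd 28.2-fold (log2 4.82 ± 0.38, adjusted p = 1.62e-06). For Ighe, 965 counts in migrated cells faced 1 count in nonmigrated cells, a ratio of 799 with an exact 95% interval of 143 to 31575 that covers counting error only.

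The size of the skin changes depended on which nonmigrated libraries were used, although all 10 members stayed called when any library was left out. Without skin nonmigrated replicate 3 the log2 fold change was 11.40 for Ighg1, 10.69 for Ighg2b, 9.93 for Ighg2c, 8.61 for Igkc, 8.19 for Iglc2 and 6.16 for Igha. Replicates 1 and 2 of these cells held 1 and 2 counts of Ighg1, 4 and 9 of Ighg2b and 0 and 5 of Iglc2. The values of these 3 genes are thus imprecise. Without skin migrated replicate 3 it was 10.06 for Ighg3 and 7.94 for Ighg2c. Keratinocyte markers (Krt5 and Krt14) summed to 22 to 252 CPM and fibroblast markers (Col1a1 and Col1a2) to 26.3 to 105 CPM in the skin nonmigrated libraries, and were at or below 1.1 CPM in those of skin migrated cells. The 4 macrophage or monocyte markers summed to 3320 to 8480 CPM in nonmigrated and 246 to 448 CPM in migrated cells of the skin, and the 4 neutrophil markers to 1280 to 2310 and 11.5 to 22.8 CPM. Their part in the result was not tested.

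**Figure D2:**
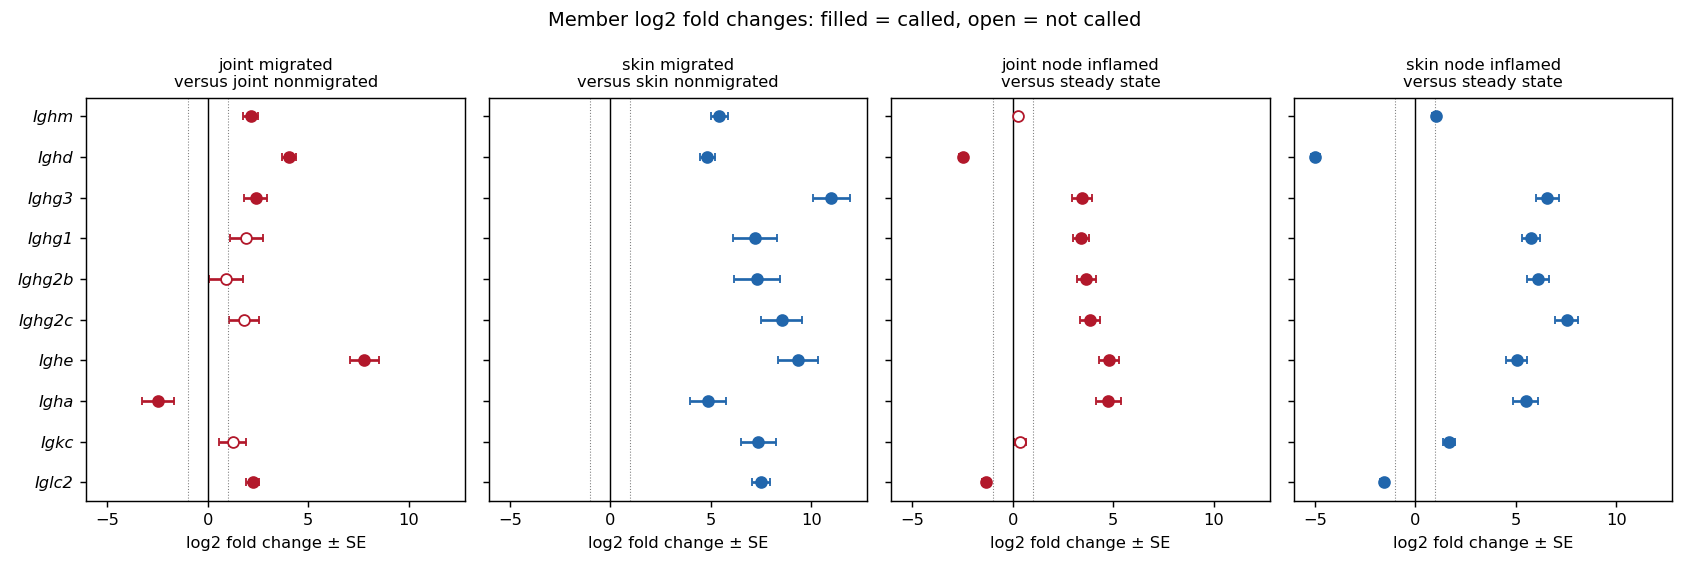
log2 fold change (x axis) of each of the 10 members (y axis) in migrated against nonmigrated cells and in inflamed against steady-state nodes, with bars of 1 SE and dotted lines at 1 and -1. Filled points passed the test: 6 in the joint, 10 in the skin, 8 in the joint node and 10 in the skin node.

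The cells that stayed were compared between the sites. In nonmigrated cells, 9 of the 10 members were higher in the joint than in the skin and none was lower, against 5.45% of tested genes called higher and 8.86% called lower (14.3% in either direction). Ighg3 was higher by 6.47 ± 0.94 (on 8 counts in the skin), Ighg1 by 5.97 ± 1.05, Iglc2 by 5.66 ± 0.45 and Igha by 5.62 ± 0.93 on the log2 scale, and Ighm by 2.68 ± 0.37, the smallest of the 9. Ighe did not pass (adjusted p = 0.305). Values without skin nonmigrated replicate 3 rest on the few counts of Ighg1, Ighg2b and Iglc2 given above and are imprecise for these genes. Without skin nonmigrated replicate 3, Ighg1 stood at 10.18, Ighg2b at 8.76 against 5.38 ± 1.07 with it, Igha at 6.90, Igkc at 6.54, Ighg2c at 6.53 and Iglc2 at 6.37, and without joint nonmigrated replicate 2 Ighg1 stood at 5.03 and Ighg2c at 4.46. B cell precursor markers (Rag1, Dntt, Vpreb1 and Igll1) summed to 19.7 to 104 CPM in joint nonmigrated and 0.18 to 2.7 CPM in skin nonmigrated cells, with Rag1 at 46.5 CPM in joint replicate 3. Their part in these levels was not tested.

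In migrated cells, 1 of the 10 members was called between joint and skin, against 0.56% of tested genes called higher and 0.578% called lower in the joint (1.14% in either direction). That member was Ighd, 6.35-fold higher in joint migrated cells (log2 2.67 ± 0.31, adjusted p = 0.00304). Ighg3 (log2 -2.16 ± 0.54, adjusted p = 0.0735), Igha (-1.74 ± 0.78; 0.293), Ighg2c (-1.62 ± 0.74; 0.302) and Ighg2b (-1.02 ± 0.86; 0.601) were lower on average in the joint and did not pass, and Ighg1 (0.70 ± 0.80; 0.709) and Ighe (2.02-fold, 0.328) were higher on average and did not pass.

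The difference between the sites in the effect of migration was tested as an interaction. It was called for 8 of the 10 members, each with a lower log2 change in the joint than in the skin. Of tested genes, 2.17% were called lower and 3.96% higher (6.13% in either direction). Igha changed in opposite directions, with a log2 change of -2.48 in the joint and 4.87 in the skin. It was -8.63 ± 1.09 for Ighg3, which rested on the same 8 counts, -7.36 ± 1.2 for Igha, -6.75 ± 1.15 for Ighg2c and -3.29 ± 0.51 for Ighm. The interaction of Ighg1 (-5.26 ± 1.27, adjusted p = 0.0296) lost its call without joint nonmigrated replicate 2, any of the 3 joint migrated libraries, skin nonmigrated replicate 1 or 2, or skin migrated replicate 1 or 3, where the adjusted p ran from 0.0531 to 0.0771. Those of Ighd (-0.77 ± 0.47, adjusted p = 0.32) and Ighe (-1.55 ± 1.89; 0.64) did not pass. The same skin nonmigrated libraries enter this test and the comparison of tissues. Without replicate 3 of these cells the values of Ighg1, Ighg2b and Iglc2 again rest on few counts and are imprecise. Without skin nonmigrated replicate 3 the interaction was -9.77 for Ighg2b, against -6.39 ± 1.35 with it, -9.48 for Ighg1, -8.64 for Igha, -8.14 for Ighg2c, -7.37 for Igkc against -6.11 ± 1.01 and -5.97 for Iglc2 against -5.26 ± 0.55. Leaving out joint nonmigrated replicate 2 gave -4.33 for Ighg1 and -6.08 for Ighg2c, leaving out joint migrated replicate 3 gave -8.34 for Igha, and leaving out skin migrated replicate 3 gave -7.68 for Ighg3 and -6.16 for Ighg2c.

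The migrated cells, as the inflamed nodes, were compared with the steady-state nodes to ask which constant genes differ between them. In the joint node, 6 of the 10 members were higher in the inflamed group and 2 lower, against 16.9% of all 17107 tested genes called higher and 7.31% called lower (24.2% in either direction). The 6 were all downstream of Ighd: Ighe (log2 4.79 ± 0.49), Igha (4.76 ± 0.61), Ighg2c (3.84 ± 0.48), Ighg2b (3.66 ± 0.48), Ighg3 (3.44 ± 0.49) and Ighg1 (3.37 ± 0.40). Ighd fell 5.67-fold (log2 -2.5 ± 0.19, adjusted p = 2.65e-07) and Iglc2 2.53-fold (log2 -1.34 ± 0.20, adjusted p = 8.81e-05). Ighm (log2 0.25 ± 0.20, adjusted p = 0.302) and Igkc (0.37 ± 0.29; 0.308) did not pass. The value of Igha was 3.76 without joint migrated replicate 3.

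In the skin node all 10 members were called, 8 higher and 2 lower, against 21.5% of tested genes called higher and 15% called lower (36.5% in either direction). Ighg2c rose 186-fold (log2 7.54 ± 0.57, adjusted p = 1.12e-07), Ighg3 by 6.57 ± 0.57, Ighg2b by 6.12 ± 0.54, Ighg1 by 5.76 ± 0.46, Igha by 5.50 ± 0.62 and Ighe by 5.04 ± 0.54 on the log2 scale. Ighd fell 31.3-fold (log2 -4.97 ± 0.22, adjusted p = 1.47e-09) and Iglc2 2.97-fold (log2 -1.57 ± 0.20, adjusted p = 1.54e-05). Igkc rose by 1.69 ± 0.29. The call of Ighm stood at the fold threshold, at 2.01-fold (SE 0.20 on the log2 scale), and was lost, with the log2 fold change in brackets, without skin migrated replicate 1 (0.90) or 3 (0.84) and without skin node replicate 2 (0.95) or 3 (0.85). Ighg3 stood at 5.60 and Ighg2c at 6.92 without skin migrated replicate 3.

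The change from steady-state to inflamed nodes differed between the sites for 5 of the 10 members in an interaction test, against 6.11% of tested genes called (2.33% higher and 3.78% lower). Because the steady-state groups differ in treatment by their titles, the test cannot tell a site difference in inflammation from a difference between those groups. Ighd fell less in the joint node (interaction 2.47 ± 0.27, adjusted p = 0.000136). Ighg2c (-3.70 ± 0.64, adjusted p = 0.00303), Ighg3 (-3.14 ± 0.67; 0.0106), Ighg2b (-2.46 ± 0.63; 0.0268) and Ighg1 (-2.38 ± 0.54; 0.0154) rose less there. For Ighg1 the joint minus skin log2 difference was 0.70 ± 0.80 in migrated cells and 3.07 ± 0.42 at steady state. The call of Ighg1 was lost without skin node replicate 2 (adjusted p = 0.0541), and that of Ighg2b without joint node replicate 1 (0.0659) or 3 (0.0528), skin migrated replicate 3 (0.0694) or skin node replicate 2 (0.0801) or 3 (0.0519). Without skin migrated replicate 3, Ighg3 stood at -2.15 and Ighg2c at -3.07. At steady state the joint node titles carry PBS and KG and the skin node titles Naive, so site and treatment cannot be told apart. Of the 10 members, 2 were higher in the joint node than in the skin node, against 3.23% of tested genes called higher (3.89% in either direction). These were Ighg1 (log2 3.07 ± 0.42, adjusted p = 0.000402) and Ighg2c (2.08 ± 0.46, adjusted p = 0.0142), and the call of Ighg2c was lost without joint node replicate 1 (adjusted p = 0.0544) or skin node replicate 1 (0.0583) or 2 (0.0838).

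The make-up of the heavy-chain pool was then read as the percent of the summed counts of the 8 heavy-chain genes in each library. These shares add up to 100 and so are not independent of each other, and they are shares of reads, not of cells. Counting error was small in percentage points, with the widest 95% Wilson interval spanning 0.98 points outside skin nonmigrated cells and 3.26 points within them. Beside the rarest shares of skin nonmigrated cells it was not small. In the steady-state nodes Ighm and Ighd together made up nearly all of the pool, and the switched genes downstream of them 3.33%, 2.42% and 2.31% in the joint node and 0.845%, 0.615% and 1.37% in the skin node. Switched here and below means every heavy-chain gene but Ighm and Ighd. Counts per gene do not show whether the DNA of the cells had been recombined. In migrated cells the switched share was 20.2%, 37.2% and 32.6% for the joint and 32.8%, 34.8% and 48% for the skin. Joint nonmigrated cells held the highest switched shares, 57%, 62.5% and 54.5%, and skin nonmigrated cells 3.91%, 10.7% and 22.9%.

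Each isotype share was tested across both sites by an exact permutation test, two-sided, with labels exchanged within site (400 arrangements, smallest possible p = 0.005). Of 16 such tests, unadjusted for their number, 12 gave a p below 0.05. A single site of 3 against 3 cannot go below a p of 0.1. Between inflamed and steady-state nodes, the share of Ighd was lower by 34.8 percentage points on average, from 36.8%, 40.5% and 38.3% to 9.06%, 5.47% and 4.8% in the joint node and from 39%, 38.4% and 37.1% to 0.575%, 0.67% and 0.566% in the skin node. The shares of Ighg2c (13.1 points), Ighg2b (7.38), Ighg1 (5.85), Igha (2.91), Ighg3 (2.77) and Ighe (0.428) were higher at the inflamed nodes. For all 7 of these isotypes the exact permutation p was 0.005, the smallest it can be. The share of Ighm differed by 2.37 points on average over the sites (exact permutation p = 0.46). It stood at 58.8% ± 1.49 (SD, n = 3) at steady state and 63.6% ± 6.73 in the inflamed group of the joint node, and at 60.9% ± 0.673 and 60.9% ± 8.21 in the skin node.

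Between migrated and nonmigrated cells the share of Ighm differed in opposite directions at the 2 sites. It stood at 42.1%, 36.8% and 43.8% in joint nonmigrated and 70.7%, 57.4% and 62.6% in joint migrated cells. In the skin it stood at 92.6%, 88% and 76.5% in nonmigrated and 66.6%, 64.5% and 51.4% in migrated cells, with no overlap at either site. Averaged over the sites the difference was -1.09 points (exact permutation p = 0.905), and the difference between the sites was not tested. The share of Igha was lower in migrated cells by 17.2 points on average (mean difference -17.2, exact permutation p = 0.02), with 38.7%, 30.4% and 31.4% in nonmigrated and 1.41%, 1.05% and 3.25% in migrated cells of the joint. In the skin the values were 1.8%, 7.89% and 11.1% in nonmigrated and 3.63%, 4.08% and 4.94% in migrated cells, which overlapped.

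Shares of Ighg3 and Ighe were higher in migrated cells by 2.42 and 0.428 points (exact permutation p = 0.005 for each), and those of Ighg2c and Ighg1 by 8.82 and 2.88 points (exact permutation p = 0.025 and 0.035). The p of Ighg2c was 0.05 without joint nonmigrated replicate 1 or skin nonmigrated replicate 1 or 2. That of Ighg1 ran from 0.05 to 0.08 without joint migrated replicate 2 or 3, joint nonmigrated replicate 1 or 3, skin migrated replicate 1 or skin nonmigrated replicate 1 or 2. For Ighg2c the skin held the larger difference, with 1.4%, 1.93% and 3.81% in nonmigrated and 11.7%, 19.1% and 22.8% in migrated cells. Averaged over the sites, the shares of Ighd (2.08 points, exact permutation p = 0.105) and Ighg2b (1.64 points, exact permutation p = 0.435) did not pass. For each the difference of group means had opposite signs at the sites. Ighd made up 0.895%, 0.682% and 1.71% in nonmigrated and 9.06%, 5.47% and 4.8% in migrated cells of the joint, with no overlap, and 3.51%, 1.3% and 0.566% against 0.575%, 0.67% and 0.566% in the skin. The skin ranges overlapped, and the nonmigrated ones rested on 35, 21 and 22 counts, so no direction is clear there. Ighg2b made up 8.54%, 12.3% and 9.84% against 4.12%, 9.51% and 7.58% in the joint, and 0.401%, 0.559% and 5.51% against 8.9%, 6.27% and 10.6% in the skin, where the groups did not overlap. The difference between the sites was not tested for either.

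**Figure D3:**
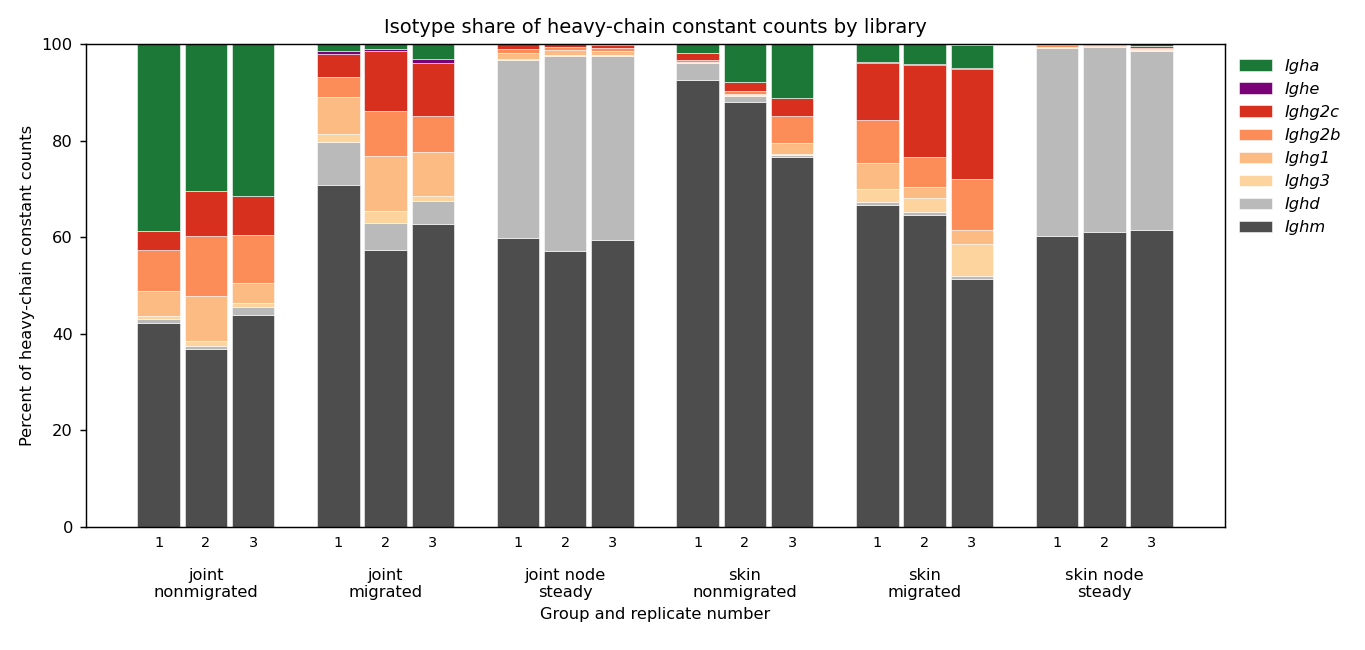
Percent of heavy-chain constant counts (y axis) taken by each of the 8 heavy-chain genes, stacked in locus order, in the 18 libraries by group and replicate number (x axis). Ighd takes 36.8% to 40.5% of the pool at steady state, Igha 30.4% to 38.7% in joint nonmigrated cells, and Ighg2c 11.7% to 22.8% in skin migrated cells.

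Shares within the 4 gamma genes alone are given as a description, from counts not divided by length. Ighg2c made up 40.6%, 62.7% and 53.2% of gamma counts in skin migrated cells, where Ighg1 made up 18.9%, 7.2% and 6.69%. In joint migrated cells Ighg1 made up 42.4%, 31.7% and 31.6% and Ighg2c 26.5%, 34.5% and 38.1%. These ranges of Ighg1 did not overlap between the sites, nor did those of Ighg2c. At steady state Ighg1 made up 39.1%, 40.8% and 37.6% in the joint node, and Ighg2b made up 40.7%, 31.7% and 39.1% in the skin node. Ighg2b made up 46.6%, 38.3% and 42.7% in joint nonmigrated cells. Per kb of exon length, on the lengths given below, Ighg2c had the highest mean of the gamma genes in these 3 groups and in both migrated groups. In joint migrated cells its mean was 319 CPM per kb against 157 for Ighg1, with overlapping ranges. The skin nonmigrated libraries held 20 to 458 gamma counts, too few to place an order.

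To compare genes, levels were divided by exon length, pooled over all transcripts of a gene, and are given as CPM per kb. That length was 1.326 kb for Ighg2c, against 2.512 kb for Ighg3, 2.592 kb for Ighg1 and 2.678 kb for Ighg2b. The secreted gamma transcripts, by contrast, aligned over 1056 to 1109 bases. The place of Ighg2c among the gamma genes thus depends on the length used. Ighm led in all 6 groups. In joint nonmigrated cells it was followed by Igha, at 238 to 442 and 155 to 258 CPM per kb, which overlap. In joint migrated cells Ighm (1222 to 1871) lay above every other isotype, and Ighg2c (mean 319, highest 463), Ighg1 (100.5 to 197), Ighd (116 to 162) and Ighg2b (52.1 to 159.6) each overlapped the next. In skin migrated cells Ighg2c stood in the second place, at 609.5 to 1627 CPM per kb, below all Ighm values and above all those of Ighg2b (114 to 376). At steady state Ighd took the second place in both nodes, and the next by mean, Ighg2c, reached 18.5 to 30.2 CPM per kb in the joint node and 4.23 to 6.52 in the skin node, where it overlapped Ighg1 (13.2 to 19.2) and Ighg2b (2 to 4.44), respectively. In joint nonmigrated cells Ighg2c (32.2 to 162) overlapped Ighg2b (34 to 104).

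The light chains were split as kappa counts against the sum of kappa and the 3 lambda genes Iglc1, Iglc2 and Iglc3, as a description without a test. The kappa share was 84.1%, 84.5% and 84.9% in the steady-state joint node and 81%, 80.8% and 81.1% in the skin node. It was higher in every inflamed library, at 90.1%, 94.6% and 94.3% in joint migrated, 96.5%, 96.1% and 97.6% in skin migrated and 93.7%, 95.7% and 94.8% in joint nonmigrated cells. Skin nonmigrated libraries stood at 100%, 93% and 95.3%, on 0 to 49 lambda counts. The make-up of the lambda counts differed as well. Iglc1 took 12.9%, 13.2% and 13.1% of lambda counts in the joint node and 12.8%, 12.7% and 11.3% in the skin node at steady state, and 29.7%, 30.2% and 41.7% in joint migrated, 53.2%, 26.6% and 52% in skin migrated and 53.2%, 63% and 54% in joint nonmigrated cells.

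By the gene test, Iglc1 did not pass between inflamed and steady-state nodes (log2 0.39 ± 0.34 in the joint, adjusted p = 0.352, and 0.68 ± 0.34 in the skin, adjusted p = 0.0967). Iglc3, like Iglc2, fell by 1.49 ± 0.17 in the joint and by 2.35 ± 0.18 in the skin on the log2 scale. Exons of Iglc3 also overlap those of the antisense gene 2010309G21Rik, which cannot be told apart if the library kit did not mark strand. Iglc2 and Iglc3 were 95.4% identical, so a read with few mismatches could be given to either, whereas Iglc1 shared 72.4% and 69.5% of aligned bases with them.

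**Figure D4:**
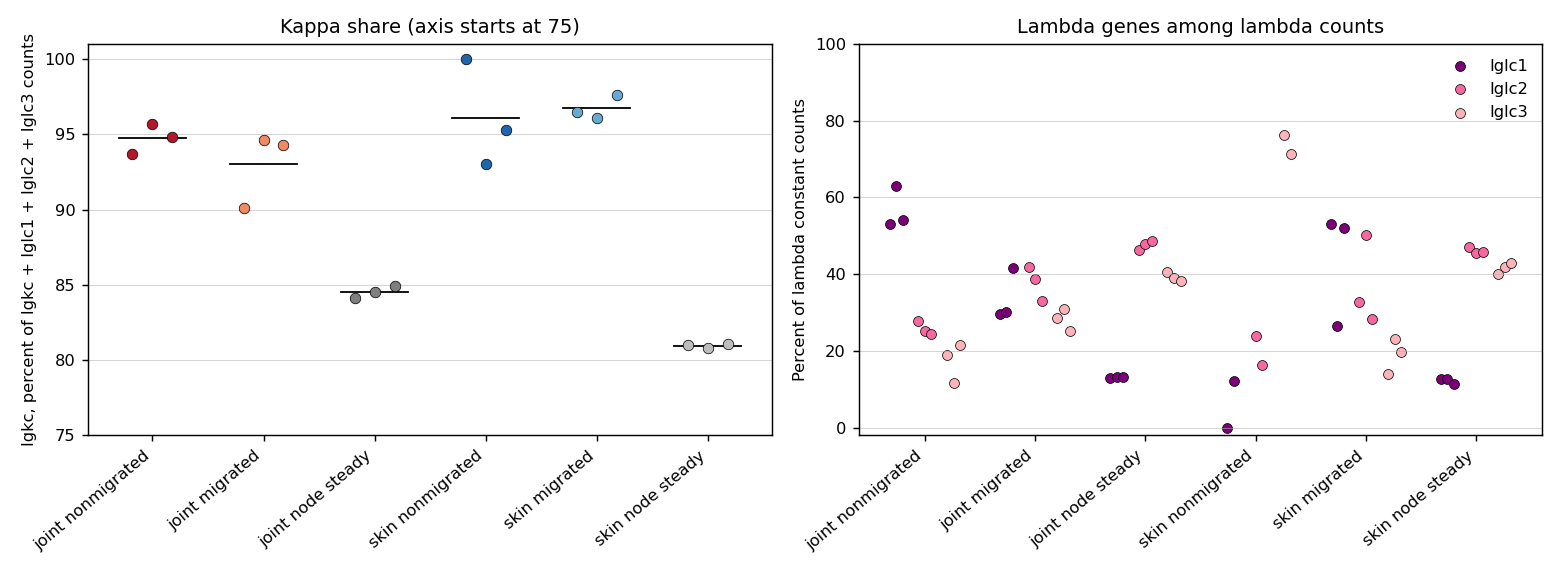
Left, Igkc counts as a percent of all kappa and lambda constant counts (y axis, starting at 75) in the 6 groups, with a point per library and a line at the mean. Right, percent of lambda counts taken by Iglc1, Iglc2 and Iglc3. Kappa stands at 80.8% to 84.9% at steady state and at 90.1% or more elsewhere, and Iglc1 takes 11.3% to 13.2% of lambda counts at steady state and 26.6% or more in migrated and joint nonmigrated cells.

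Constant gene counts were set against Cd79a, which encodes a chain of the B cell receptor complex carried by B cells. There were 2.16, 2.02 and 1.79 Ighm counts per Cd79a count in the steady-state joint node and 2.37, 2.56 and 2.67 in the skin node. The ratio was 8.85, 11.6 and 15 in joint migrated cells and 15.6, 25.8 and 8.35 in joint nonmigrated cells. Both skin populations stood apart from all of these, at 96.9, 95.3 and 82 in migrated and 103, 83.4 and 85 in nonmigrated cells. The skin nonmigrated ratio rested on 9, 17 and 35 Cd79a counts.

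Switched heavy-chain counts per Cd79a count ranged more widely. They were 0.0258 to 0.12 at steady state, 2.53, 7.48 and 7.85 in joint migrated, 47.8, 51.4 and 76.5 in skin migrated, 21.2, 43.8 and 10.4 in joint nonmigrated and 4.33, 10.1 and 25.4 in skin nonmigrated cells. Ighd counts per Cd79a count were 0.838 to 1.61 over the 12 node libraries, 0.327 to 0.477 in joint nonmigrated cells and 3.89, 1.24 and 0.629 in skin nonmigrated cells, the last on the few Cd79a counts given above. Ighm counts per Ighd count were 1.41 to 1.66 at steady state, 7.81 to 13 in joint migrated and 90.9 to 116 in skin migrated cells. These ratios are descriptions and carry no test.

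In 5 of the groups there were 0.402 to 0.655 light-chain counts for each heavy-chain count in every library. Skin nonmigrated cells stood below this range in each library, at 0.0641, 0.186 and 0.27. There Ighm reached 924, 1417 and 2974 counts and Igkc 64, 278 and 999, while Cd79a reached 9, 17 and 35. Whether this Ighm came from B lineage cells was not tested.

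**Figure D5:**
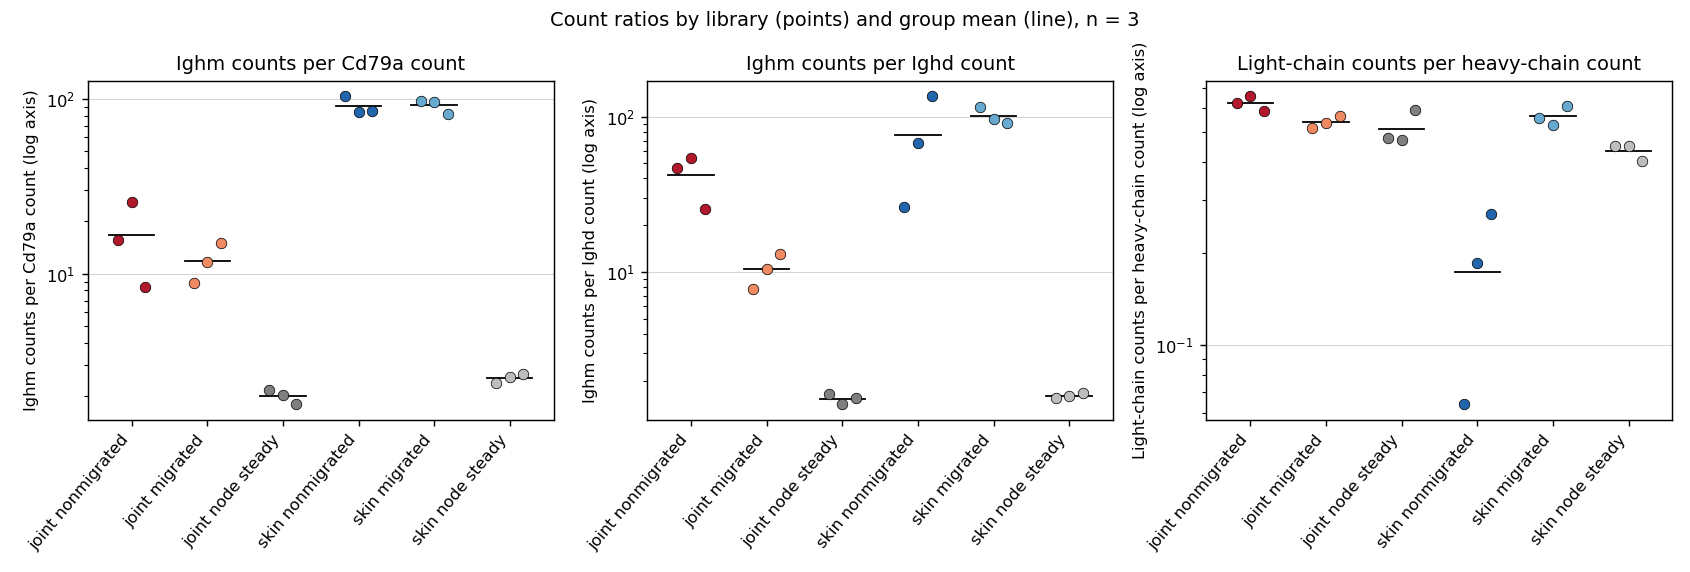
Ighm counts per Cd79a count, Ighm counts per Ighd count, and light-chain counts per heavy-chain count (y axes, log) in the 6 groups, with a point per library and a line at the mean of 3. Skin populations stand at 82 to 103 Ighm counts per Cd79a count against 1.79 to 2.67 at steady state, and skin nonmigrated cells have 0.0641 to 0.27 light-chain counts per heavy-chain count.

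Genes of mature B cells moved with the node comparisons in the direction of Ighd. Of 11 such genes, 11 fell in the inflamed joint node and 11 in the inflamed skin node, against 7.31% and 15% of all tested genes, with a median log2 fold change of -2.31 and -4.16 where the median of all tested genes was -0.02 and 0. In the joint node Cr2, a complement receptor, had a log2 fold change of -2.74, Ms4a1 of -2.55, Bank1 of -2.45, and Cd79a of -2.31. In the skin node Fcer2a, the low-affinity IgE receptor, had one of -5.29, Cr2 of -4.62, Pax5 of -4.60 and Cd79a of -4.16. Between migrated and nonmigrated cells, 8 of the 11 rose at each site, against 16% of tested genes in the joint and 15.7% in the skin, with Cr2 (log2 5.14 ± 0.38), Fcer2a (4.65 ± 0.50) and Cd22 (3.31 ± 0.33) in the lead in the joint and Pax5 (6.97 ± 0.73), Cr2 (6.41 ± 0.53) and Cd79a (5.35 ± 0.47) in the skin.

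Plasma cell genes moved the other way at the nodes, where 6 of 10 rose in the joint and 7 of 10 in the skin, against 16.9% and 21.5% of tested genes, and none fell. Jchain, which encodes the chain that joins IgM and IgA into polymers, rose by 4.79 ± 0.35 and 6.39 ± 0.38, from 7.27 to 9.41 CPM and 2.62 to 6.14 CPM at steady state to 168 to 325 CPM and 251 to 459 CPM. Prdm1, the transcription factor of plasma cell differentiation that T cells also use, rose by 2.65 ± 0.11 and 3.33 ± 0.11. Tnfrsf17, the plasma cell survival receptor BCMA, was called at both nodes but reached at most 1.63 CPM in any node library. In joint nonmigrated cells Jchain stood at 100.2, 187 and 108 CPM, and it did not pass between migrated and nonmigrated cells of the joint (log2 0.75 ± 0.52, adjusted p = 0.24). In skin it rose from 0.24, 2.69 and 4.94 CPM to 375, 251 and 459 CPM (log2 7.08 ± 0.70). Of the 10 genes, 4 rose and 1 fell between migrated and nonmigrated cells in the joint, against 16% and 18.4% of tested genes, and 7 rose and 1 fell in the skin, against 15.7% and 19.7%. Sdc1, which fibroblasts and epithelium also express, was the one that fell at each site (log2 -2.66 ± 0.35 in the joint), and Mzb1 rose by 2.49 ± 0.43 in the joint and 6.06 ± 0.60 in the skin, with Derl3 at 2.29 ± 0.52 and 4.46 ± 0.62. At the nodes Mzb1 did not pass, with means of 34.5 CPM in joint migrated cells and 34 CPM in the steady-state joint node, and of 17.7 and 22.3 CPM for the skin.

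Among 12 genes of switching and its DNA repair, 1 rose at each inflamed node against steady state, a share below the 16.9% (joint) and 21.5% (skin) of all tested genes. That gene was Exo1, an exonuclease (log2 1.46 ± 0.25 and 2.28 ± 0.26). In migrated against nonmigrated cells 3 of the 12 rose in the joint and 6 in the skin, against 16% and 15.7% of tested genes, among them Xrcc5 (2.34 ± 0.32 and 2.10 ± 0.32) and Ung (1.53 ± 0.28 and 2.39 ± 0.30), with Rif1 in the joint (1.01 ± 0.16) and Exo1 in the skin (2.25 ± 0.40).

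Of 16 signals and receptors known to direct switching, 8 rose at each inflamed node, while none fell in the joint node and 1 fell in the skin node. Of all tested genes 16.9% rose and 7.31% fell in the joint node, and 21.5% and 15% in the skin node. Il21, a helper T cell cytokine for B cells, led with 3.88 ± 0.27 and 3.87 ± 0.28, followed by Ifng, which favours IgG2c, with 2.87 ± 0.19 and 3.18 ± 0.19, and Il10 with 2.65 ± 0.24 and 3.03 ± 0.26. Levels of Ifng were 22.1, 26.7 and 21.7 CPM in joint migrated and 31, 18.9 and 24.4 CPM in skin migrated cells, and those of Il4, which favours IgG1 and IgE, were 0.616, 0.327 and 0.6 CPM and 0.512, 0.499 and 0.798 CPM. In migrated against nonmigrated cells, 5 of the 16 rose and 3 fell in the joint (16% and 18.4% of tested genes), and 4 rose and 5 fell in the skin (15.7% and 19.7%). Tnfsf13 and Tnfsf13b, the B cell survival factors APRIL and BAFF, fell in the joint (log2 -4.58 ± 0.52 and -3.90 ± 0.25) while Il21 rose (2.69 ± 0.52), and Il13 (-3.75 ± 0.75), Il4 (-3.48 ± 0.54) and Tnfsf13 (-2.88 ± 0.52) fell in the skin.

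The genes whose levels followed each member most closely were ranked by Pearson's r of log2(CPM + 1) over the 18 libraries, among 14427 genes without an immunoglobulin or predicted name. The libraries share group structure, so r is given as a description. For Ighd the closest were Fcmr (r = 0.996), Tnfrsf13c (0.994), Ms4a1 (0.993), Cd22 (0.992) and Fcer2a (0.992), which encode B cell surface proteins. Ighg2b and Ighg2c were closest to Jchain (0.967 and 0.956), and Jchain was also among the 5 closest to Ighg1 (0.918). Ighg3 was closest to Derl3 (0.941), a gene of endoplasmic reticulum protein disposal, with Pycr1 (0.94), Herpud1 (0.937), Ddb1 (0.935) and Igsf9 (0.933) next. Igha (Fbxo10, 0.953), Igkc (Ccdc163, 0.945), Ighg1 (Nf2, 0.945) and Ighm (Srm, 0.959) were closest to genes outside the B cell and plasma cell lists used here.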

How the data were processed

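CD45+ cells from 6 groups of 3 pools, Kaede red+ in the 4 inflamed groups, were sequenced as 100-base read pairs. The labels do not settle whether the steady-state cells were photoconverted. Per the paper and the labels, the authors trimmed reads with Trim Galore, aligned them to mm10 with TopHat2 and Ensembl release 87 gene models, and counted reads per gene with HTSeq under default settings. The deposited values are these raw counts, and no reads were realigned here. HTSeq leaves out reads aligned to several places (9.243% to 12.745% per library). The 5 HTSeq summary rows (11.27% to 15.1% of each column) were left out of library sizes. Symbols, positions and sequences came from GENCODE M21, of the same build, by Ensembl identifier, which matched 49326 of 49585 genes. HTSeq counts by strand by default, and whether the library kit marked strand is not given in the sources used here.

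Counts were tested with edgeR 4.0.16 (TMM, filterByExpr with a minimum count of 10, quasi-likelihood F test), limma 3.58.1 and R 4.3.3. A joint fit was made of the 12 inflamed libraries (16777 genes) and another of the 12 lymph node libraries (17107 genes). Each standard error was taken as the size of the log2 change over the root of its F statistic. Shares were tested by exact permutation within site in Python 3.11.15 with scipy 1.17.1. DESeq2 1.42.0 served as an alternative, beside a p threshold of 0.001, no filter, a replicate block, other sets of libraries, counts per kb, log2 odds, and each library left out in turn. The edgeR test was checked on simulated counts for joint migrated against nonmigrated cells and for the joint node comparison. Its interactions and its comparisons of joint with skin were not simulated. The permutation test was checked on made-up separated and constant values. Replicates are separate pools as far as the labels say, and p-values measure the spread between pools. Replicates of a group differed by more than sampling noise (chi-square per degree of freedom 14.7 to 117.1).

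All 10 members, Iglc1, Iglc3, Jchain and Cd79a are named throughout, with up to 3 called genes of largest fold per context list in the comparisons of migrated with nonmigrated cells and of inflamed with steady-state nodes, and the 5 genes most like each of 8 members. Levels of Ifng and Il4 in migrated cells were chosen for print after their values were seen. The members and lists were chosen with earlier results of these data known. Some genes of the context lists are not reported here and were left out of the counts and sums.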

Additional observations from a re-analysis of the deposited data

Results flagged for a closer look

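The effect of migration differed between joint and skin for 8 members by the edgeR interaction test, as the log2 change in the joint minus that in the skin. The values were -8.63 for Ighg3, -7.36 for Igha, -6.75 for Ighg2c, -6.39 for Ighg2b, -6.11 for Igkc, -5.26 for Ighg1, -5.26 for Iglc2 and -3.29 for Ighm. The change from steady-state to inflamed nodes differed between the sites for 5 members, with 2.47 for Ighd, -3.70 for Ighg2c, -3.14 for Ighg3, -2.46 for Ighg2b and -2.38 for Ighg1. The steady-state titles carry PBS for the joint and Naive for the skin, so site and treatment cannot be told apart in these values.

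The share of Ighm among heavy-chain counts moved in opposite directions, with every joint migrated library above and every skin migrated library below the nonmigrated libraries of its site. The group means differed by 22.7 percentage points in the joint and by -24.9 points in the skin, and the difference between the sites was not tested. Skin nonmigrated cells held few light-chain counts beside their Ighm counts, and whether this Ighm came from B lineage cells was not tested.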

How the results depend on the processing

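Of 1269 alternative values for a member's log2 fold change, 1187 kept direction and call, 52 lost the call, 23 gained it and 7 changed sign. None of the 7 had been called, and they were Ighe in the interaction of site and migration (0.50 without joint nonmigrated replicate 2, with a range of -4.06 to 0.50 over the libraries left out), Ighe in the interaction of site and inflammation (0.02, 0.01, 0.08, 0.28 and 0.15 without joint migrated replicate 2, joint node replicate 2, joint node replicate 3, skin migrated replicate 1 and skin node replicate 2, with a range of -0.71 to 0.28) and Iglc2 between steady-state nodes (-0.00 without skin node replicate 3, with a range of -0.00 to 0.34). At an adjusted p below 0.001, members called became 4 rather than 6 in the joint (Ighg3 and Igha were lost), 5 rather than 9 between nonmigrated cells of joint and skin, 0 rather than 1 between migrated cells, 1 rather than 8 in the site by migration interaction, 1 rather than 2 between steady-state nodes and 1 rather than 5 in the site by inflammation interaction. Calls over all tested genes shrank as well. In the same order they became 3586 rather than 5757, 511 rather than 2400, 0 rather than 191 and 20 rather than 1029 of 16777 genes. For the last 2 comparisons they became 246 rather than 665 and 152 rather than 1045 of 17107 genes. Between migrated cells 2 members were called without a filter, with all 18 libraries in one fit and by the DESeq2 Wald test. Between steady-state nodes 4 were called without a filter, 3 by DESeq2 and by a fit of those groups only, and 1 with all 18 libraries, where the site by inflammation interaction called 3. With each library left out, members called ranged from 1 to 2 between steady-state nodes, from 3 to 6 in the site by inflammation interaction, from 5 to 7 in the joint and from 7 to 8 in the site by migration interaction. Over all tested genes these ranges were, in the same order, 465 to 603, 695 to 1240, 5217 to 5658 and 582 to 2610.

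The labels do not say whether same-numbered replicates came from the same mice, and these replicates were at most weakly correlated. Correlations of their deviations were 0.021, 0.254 and 0.195 between joint migrated and nonmigrated cells and 0.173, 0.073 and 0.148 in the skin, where alone each library correlated best with its own number. With the replicate block, members called were 8 rather than 6 in the joint (Ighg1 at log2 2.17 and Ighg2c at 1.87 were gained, as they were without a filter, with all 18 libraries and, together with Igkc, in a fit of the groups compared only) and 9 rather than 10 in the skin node (Ighm at 0.98 was lost), and unchanged in number elsewhere. For the shares, sign flips of same-numbered differences (replicate block, smallest p 0.0312) gave -17.2 points and an exact p of 0.0625 for Igha.

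Of 240 alternative share tests, 224 kept direction and side. Per kb of exon length, the difference for Ighg1 was 1.82 points (exact permutation p = 0.065). With each library left out, the migrated minus nonmigrated difference ranged from -3.39 to 1.26 points for Ighm, changing sign without joint migrated replicate 2 (0.452), skin migrated replicate 3 (1.26) or skin nonmigrated replicate 1 (0.626), from 2.38 to 3.66 for Ighg1 and from 7.58 to 10.4 for Ighg2c. The inflamed minus steady-state difference for Ighm ranged from 0.583 to 4.73 points (exact permutation p = 0.03 for the latter, without skin migrated replicate 3). With Iglc2 as the sole lambda gene the kappa share was 98.6% in joint nonmigrated, 97.2% in joint migrated, 98.7% in skin migrated and 92% and 90.2% in the steady-state joint and skin nodes. The causes of these changes were not tested.

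Counting error is largest in skin nonmigrated cells, where Ighg3, Ighe and the lambda genes rest on a few counts at a depth (19602701 to 22528895 assigned counts) like that of skin migrated cells (19239531 to 22378238).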

Other observations

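Lambda light chains in the skin nonmigrated libraries had a make-up unlike that of the other groups, as far as their few counts show. Iglc3 took 76.2% and 71.4% of lambda counts in replicates 2 and 3, which held 21 and 49 lambda counts, whereas it took 11.7% to 42.8% in the libraries of the other groups. Replicate 1 held none.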
